A study of Mus musculus with 15 samples.

Results

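Growth hormone, prolactin and estrogen signalling in the maternal liver was followed through 10 genes chosen by name. They were the receptor genes Ghr, Prlr and Esr1, the transcription factor genes Stat5a and Stat5b, the feedback inhibitor genes Cish and Socs2, the growth factor gene Igf1 with its carrier Igfals, and the repressor gene Bcl6. These were 10 of the 21702 genes in the count table, and all 10 passed the filter on low counts, among 12172 genes tested. RNA-seq had been done on liver of wild-type (WT) female mice, C57BL/6 in the labels and C57BL/6N in the study's methods, in 15 libraries that formed 5 groups of 3. Non-pregnant (NP) mice, mice at 8 days post-coitum (8 dpc) and mice at 16 dpc carried AAV8-null, an adeno-associated virus with no insert, and further groups at 8 dpc and 16 dpc carried AAV8-p21. The methods of the study describe young adult virgin females, virus given through the tail vein before mating, and a thyroxine-binding globulin (TBG) promoter that restricts p21 to hepatocytes. No group was without virus, and NP mice with AAV8-p21 were not analysed here. The labels do not say whether each library was a separate animal, so p-values measure the spread between these libraries.

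Growth hormone binds its receptor Ghr, and prolactin and the placental lactogens bind Prlr. Both receptors activate the kinase Jak2, which phosphorylates Stat5a and Stat5b, and these enter the nucleus and bind a palindromic DNA motif. Cish and Socs2 are induced by STAT5 and dampen the receptors, whereas Bcl6 is a repressor that binds many of the same sites and is itself lowered by growth hormone in liver. In hepatocytes STAT5 also drives Igf1, the main circulating growth mediator, and Igfals, which holds it in a stable serum complex. Esr1 is the main estrogen receptor of the liver.

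The palindromic STAT5 motif TTCNNNGAA, which reads the same on both strands, was searched in RefSeq promoter windows of build GRCm38.p6, from 250 bases before to 50 bases after each annotated start. Windows were given for 9 of the 10 genes, with 18 windows in all, and 7 windows of 5 genes held the motif (Cish, Bcl6, Prlr, Igfals and Esr1). The share among all 32851 windows was 8.3%. Windows of Ghr, Igf1, Stat5a and Stat5b did not hold these letters, and Socs2 had no window. The stretches shown here are the feedback inhibitor and the repressor with more than 1 match, and the prolactin receptor start with 1 match; capitals mark the motif. In Cish the matches began at the annotated start and 11 bases after it. In Bcl6 they began 168, 122 and 88 bases before it, and at least 3 matches were found in 0.0335% of all windows. In Prlr the match began 110 bases before 1 of 3 annotated starts. A match of letters is a description of the sequence, and binding was not measured.
Cish, 30 bases around the start, chr9:107296654-107296683, plus strand: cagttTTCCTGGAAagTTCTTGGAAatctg
Bcl6, 250 bases before a start, chr16:23981284-23981533, minus strand: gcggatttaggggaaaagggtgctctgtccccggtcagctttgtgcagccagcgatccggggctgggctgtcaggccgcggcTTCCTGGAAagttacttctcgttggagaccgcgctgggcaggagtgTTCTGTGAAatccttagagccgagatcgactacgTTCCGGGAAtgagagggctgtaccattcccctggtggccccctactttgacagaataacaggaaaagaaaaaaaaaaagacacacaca
Prlr, 250 bases before a start, chr15:10223656-10223905, plus strand: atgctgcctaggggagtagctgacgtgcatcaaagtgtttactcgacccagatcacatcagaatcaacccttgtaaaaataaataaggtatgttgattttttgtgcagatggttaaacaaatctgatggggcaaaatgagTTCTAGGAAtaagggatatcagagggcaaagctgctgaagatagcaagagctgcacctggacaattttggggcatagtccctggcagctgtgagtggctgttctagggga

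Total counts lay between 12280709 and 17615185 per library. Cdkn1a, the gene that AAV8-p21 carries, was read first as a check of the labels. It stood at 648, 628 and 347 CPM (counts per 1000000 counts of the library, with totals scaled by TMM) in the 8 dpc AAV8-p21 libraries and at 1664, 815 and 1093 CPM in those at 16 dpc, against 3.29 to 127 CPM in the 9 AAV8-null libraries, with no overlap between the viruses. The hepatocyte gene Alb took 7.90% to 27.8% of all counts. It was at 20.5% or more in the 6 libraries at 16 dpc, and TMM factors fell to 0.682 there. Scaling by library size alone moved the median log2 fold change of all genes from -0.03 to -0.70 at 16 dpc against NP, and levels below are on the TMM scale unless stated. Clock genes differed widely between libraries of 1 group. Arntl was at 17.2 CPM in NP library 1 and at 1.71 and 1.40 CPM in the other NP libraries, it was at 8.06 to 25.4 CPM in the pregnant AAV8-null libraries, and it was at 0.511 to 2.91 CPM in all 3 AAV8-p21 libraries at 16 dpc, while Dbp ran the other way. The collection times were not given in the sources used here. In 8 dpc AAV8-null library 2 the acute-phase genes Saa1 and Saa2 were at 869 and 596 CPM, against at most 42.1 CPM of Saa1 in the other 14 libraries. In bulk liver, fewer cells of a type and less RNA per cell cannot be told apart.

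**Figure D1:**
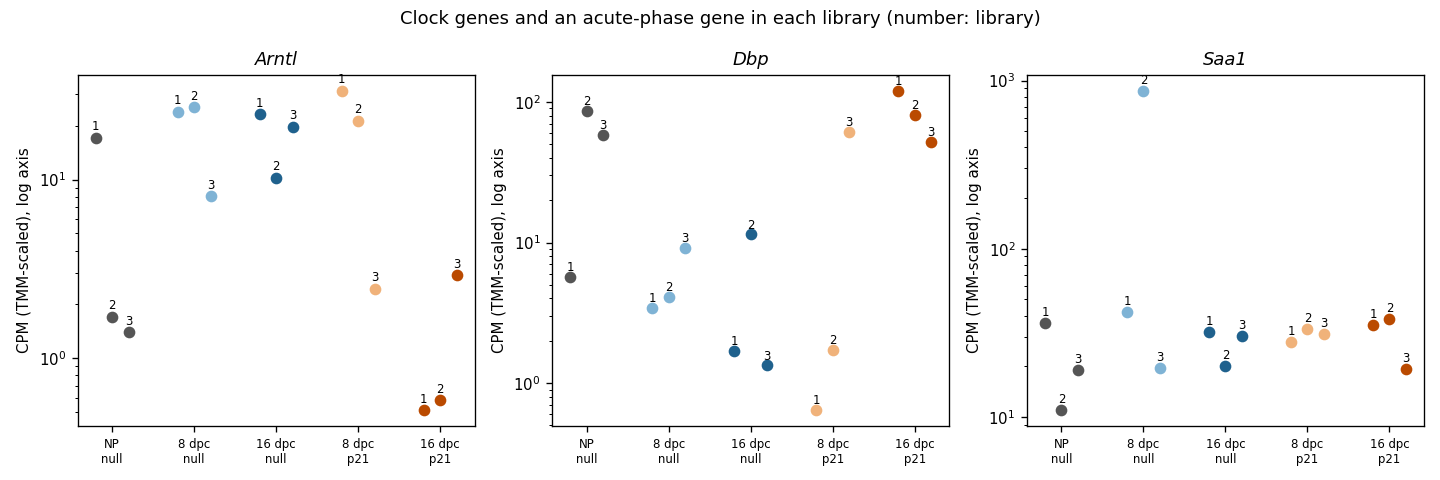
Level of the clock genes Arntl and Dbp and the acute-phase gene Saa1 (CPM, TMM-scaled, log axis) in each of the 15 libraries, with points numbered by library and coloured by group. Arntl and Dbp separate libraries of the same group, most of all within NP and within 8 dpc AAV8-p21, and Saa1 stands apart in 8 dpc AAV8-null library 2 at 869 CPM.

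Transcripts of growth hormone and of the prolactin family were close to absent from the liver counts. Of Gh, Prl, Prl3d1, Prl3d2, Prl3d3, Prl3b1, Prl2c2 and Prl8a9, 7 were at 0 counts in all 15 libraries, and Prl had 1 count in 1 library at 16 dpc with AAV8-null. Igf2, which signals through the IGF receptors and was read in the same list of 9, had 1 to 23 counts per library. None reached the filter for testing.

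The comparison of 16 dpc with NP under AAV8-null asked how pregnancy changes these genes in late gestation. The hormone receptor genes Ghr and Prlr rose 9.27- and 9.40-fold and were joined by the feedback inhibitors Cish and Socs2, so that 4 of the 10 genes were called, all of them higher. The test was edgeR's quasi-likelihood test at an adjusted p under 0.05 over all genes, which called 6.52% of the 12172 genes in this comparison (3.71% higher). Libraries of the groups did not overlap for 5 of the 10 genes, all higher at 16 dpc, where 12.1% of all genes were higher and 24.6% were higher or lower without overlap. DESeq2 called 5 of the 10, with Igf1 as the fifth, among 1207 of 16073 genes, and edgeR without NP library 1 called the same 5 among 734 of 12416 genes. Of all genes called, 56.8% were higher under TMM and 3.79% under library size alone.

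Ghr (chr15:3317760-3583492, minus strand, GENCODE M21 on GRCm38) was at 355, 283 and 383 CPM in the NP libraries, at 383, 341 and 191 CPM at 8 dpc and reached 4407, 3151 and 1909 CPM at 16 dpc, all with AAV8-null. Every library at 16 dpc was at least 1909 CPM, whereas NP and 8 dpc overlapped. The group means were 340.3 ± 51.8 CPM (SD, n = 3) in NP and 3156 ± 1249 CPM (SD, n = 3) at 16 dpc. The log2 fold change at 16 dpc against NP was 3.21 (SE 0.35, adjusted p = 1.13e-04), which is 9.27-fold. Per length of exons, Ghr moved from rank 940 among 12170 genes in NP to rank 137 at 16 dpc, by mean RPKM of 37.6 and 349. At 8 dpc against NP the log2 fold change was -0.16 with a 95% interval of -0.85 to 0.53.

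Prlr (chr15:10177238-10349180, plus strand) was also highest at 16 dpc. It was at 449, 217 and 249 CPM in NP, at 649, 609 and 331 CPM at 8 dpc and reached 3331, 3133 and 2134 CPM at 16 dpc with AAV8-null. The libraries at 16 dpc lay apart from both other groups, and NP library 1 overlapped with 8 dpc. The log2 fold change was 3.23 (SE 0.34, adjusted p = 8.53e-05) at 16 dpc against NP, a 9.40-fold higher level. At 8 dpc against NP it was 0.80 with a 95% interval of 0.13 to 1.47 and an adjusted p of 0.578, which did not pass. By mean RPKM Prlr stood at rank 1528 in NP, 994 at 8 dpc and 238 at 16 dpc. Its annotated span overlaps that of the gene model Gm21973, so reads there could be split or dropped by the counting.

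Esr1 (chr10:4611593-5005614, plus strand) did not follow the other receptors. It was at 25.1, 22.5 and 26.6 CPM in NP, 40.5, 46.0 and 31.9 CPM at 8 dpc and 24.1, 32.9 and 31.1 CPM at 16 dpc with AAV8-null. All libraries at 8 dpc were above all NP libraries, and those at 16 dpc overlapped both. The log2 fold change was 0.68 at 8 dpc against NP (95% interval 0.12 to 1.23, adjusted p = 0.559) and 0.25 at 16 dpc against NP (95% interval -0.31 to 0.81, adjusted p = 0.630), and neither passed in edgeR.

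**Figure D2:**
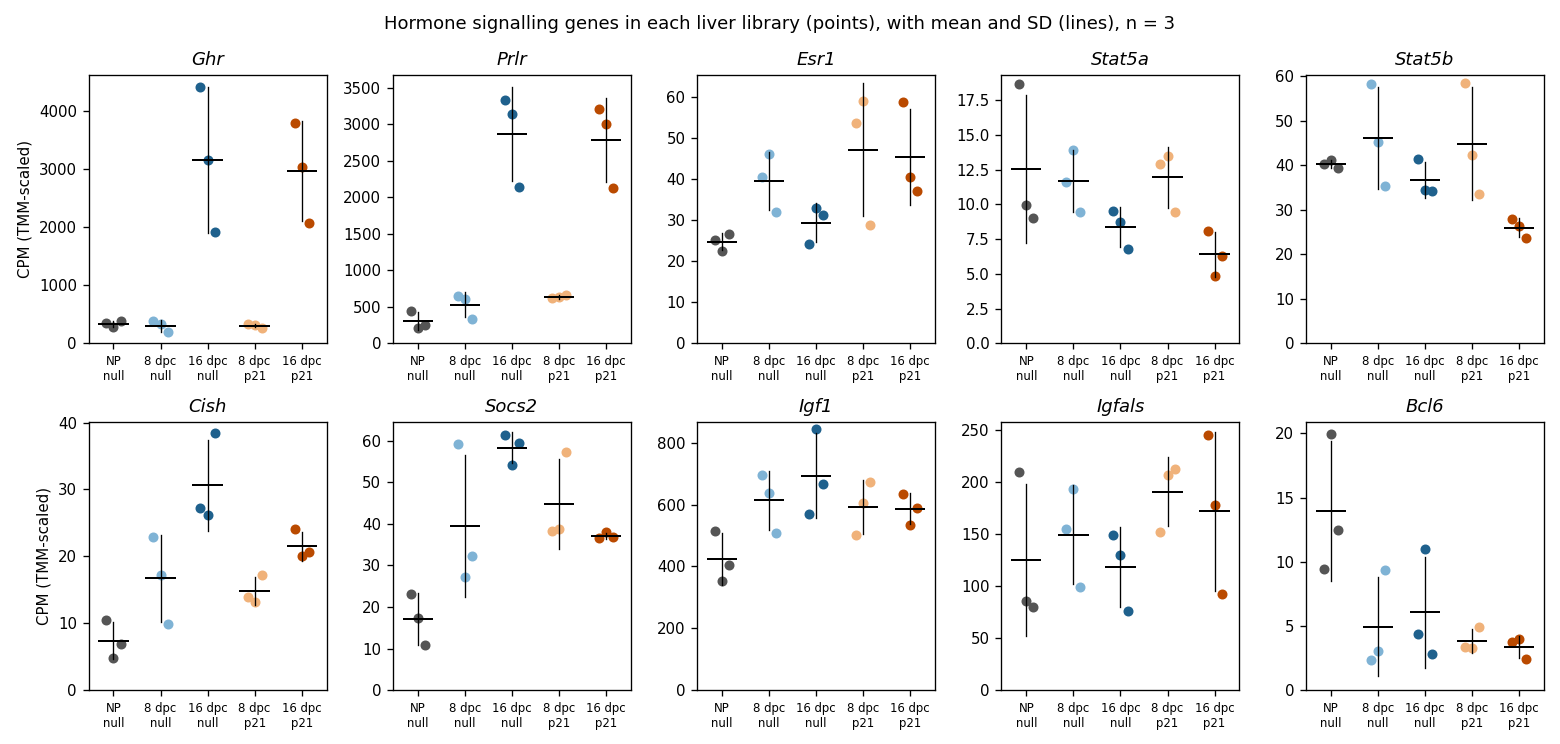
Level of the 10 genes (CPM, TMM-scaled, linear axes from 0) in each library, with group mean and SD (n = 3 per group). Ghr and Prlr at 16 dpc lie between 1909 and 4407 CPM with either virus and at most 667 CPM elsewhere, and the other genes change less.

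Cish (chr9:107296026-107302784, plus strand), whose start holds the pair of motifs printed above, was at 10.5, 4.87 and 6.92 CPM in NP, 22.9, 17.3 and 9.94 CPM at 8 dpc and 27.2, 26.2 and 38.4 CPM at 16 dpc with AAV8-null. The 16 dpc libraries did not overlap with either earlier group. The log2 fold change at 16 dpc against NP was 2.05 (SE 0.31, adjusted p = 0.00133, 4.13-fold). At 8 dpc against NP it was 1.17 with a 95% interval of 0.52 to 1.83, but the adjusted p was 0.310. Without 8 dpc library 3 this change was called, with a log2 fold change of 1.44 and an adjusted p of 0.0403, and with any other library left out it was not.

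Socs2 (chr10:95385362-95417180, minus strand) was at 23.2, 17.2 and 10.8 CPM in NP, 59.1, 27.2 and 32.2 CPM at 8 dpc and 61.3, 54.2 and 59.4 CPM at 16 dpc with AAV8-null. Each 8 dpc and each 16 dpc library was above all NP libraries. The log2 fold change was 1.77 at 16 dpc against NP (SE 0.30, adjusted p = 0.00304, 3.41-fold). At 8 dpc against NP it was 1.21 (95% interval 0.57 to 1.85), with an adjusted p of 0.298 in edgeR and 0.0356 in DESeq2. Without 8 dpc library 1 the edgeR value was 0.80, and leaving out 1 library at a time gave adjusted p of 0.0759 to 0.935. The levels of both inhibitors were far below those of the receptors, with mean RPKM at 16 dpc of 4.77 for Cish and 6.11 for Socs2 against 349 for Ghr and 187 for Prlr.

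The STAT5 genes did not rise with the receptors. Stat5a (chr11:100859351-100885169, plus strand) was at 18.6, 9.99 and 9.02 CPM in NP and 9.54, 8.75 and 6.76 CPM at 16 dpc with AAV8-null, and its span overlaps that of Stat3. Stat5b (chr11:100780731-100850724, minus strand) was at 40.4, 41.2 and 39.4 CPM in NP and 41.4, 34.6 and 34.3 CPM at 16 dpc. NP library 1 had the highest Stat5a of all 15 libraries. The log2 fold changes at 16 dpc against NP were -0.59 for Stat5a (95% interval -1.20 to 0.03) and -0.13 for Stat5b (95% interval -0.59 to 0.32), and neither was called. Without NP library 1 the Stat5a value was -0.19.

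The effector genes Igf1 and Igfals moved less than Ghr and Prlr. Igf1 (chr10:87858265-87937042, plus strand) was at 516, 352 and 406 CPM in NP, 697, 636 and 507 CPM at 8 dpc and 571, 843 and 666 CPM at 16 dpc with AAV8-null. The 16 dpc libraries were all above the NP libraries, and the log2 fold change was 0.71 (95% interval 0.25 to 1.16). Its adjusted p of 0.0657 in edgeR did not pass, whereas DESeq2 gave 0.0128, and under library-size scaling the value fell to 0.03. Igfals (chr17:24865997-24882010, plus strand) was at 209.9, 85.9 and 80.0 CPM in NP and 149.7, 130.0 and 76.0 CPM at 16 dpc, with overlapping groups and a log2 fold change of -0.08 (95% interval -0.96 to 0.80). Leaving out 1 library at a time moved that value between -0.32 and 0.52, the highest without NP library 1.

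Bcl6 (chr16:23965052-23988852, minus strand), the repressor with 3 motifs before 1 of its starts, had its highest mean in NP, and its span overlaps that of the gene model Gm37419. It was at 9.42, 20.0 and 12.5 CPM in NP, 2.39, 3.04 and 9.36 CPM at 8 dpc and 4.37, 11.0 and 2.85 CPM at 16 dpc with AAV8-null. All 8 dpc libraries were below all NP libraries, while 16 dpc library 2 reached into the NP range. The log2 fold change was -1.50 at 8 dpc (95% interval -2.61 to -0.39, adjusted p = 0.480) and -1.20 at 16 dpc against NP (95% interval -2.31 to -0.08, adjusted p = 0.204), and neither passed. Leaving out 1 library at a time moved these values between -2.36 (without 8 dpc library 3) and -1.14 at 8 dpc, and between -1.95 (without 16 dpc library 2) and -0.85 at 16 dpc, with no call. With AAV8-null, library 3 at 8 dpc and library 2 at 16 dpc had the highest Bcl6 of their groups. Their Arntl was the lowest of their groups, at 8.06 and 10.2 CPM. The same held for library 3 at 8 dpc with AAV8-p21 (2.45 CPM), but not in NP or at 16 dpc with AAV8-p21. At 16 dpc with AAV8-p21, Arntl was at most 2.91 CPM and mean Bcl6 was the lowest of all groups, at 3.38 CPM. The fasting gene Pdk4 was at 1222 CPM in 16 dpc AAV8-null library 2, against 110 and 159 CPM in the others of its group. NP library 2 and 8 dpc AAV8-null library 3, also highest in Bcl6, had the lowest Pdk4 of their groups (21.8 and 14.6 CPM). In the AAV8-p21 libraries highest in Bcl6, Pdk4 was highest of its group at 16 dpc and in the middle at 8 dpc. With an index of clock genes as a covariate the 16 dpc value was -0.46. The part of clock phase or fasting in Bcl6 was not tested further.

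At 8 dpc against NP, edgeR called 0 of the 10 genes and 0% of all genes. At an unadjusted p under 0.05 it had 803 genes, with 6 of the 10 (Socs2, Cish, Bcl6, Esr1, Prlr and Igf1), and DESeq2 called 66 genes with 1 of the 10, Socs2. Without 8 dpc library 3, which had the lowest Ghr, Prlr and Cish and the highest Bcl6 of its group, edgeR called 92 genes. Groups did not overlap for 3 of the 10 genes, against 10.2% of all genes. This comparison shares its NP libraries with that at 16 dpc.

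**Figure D3:**
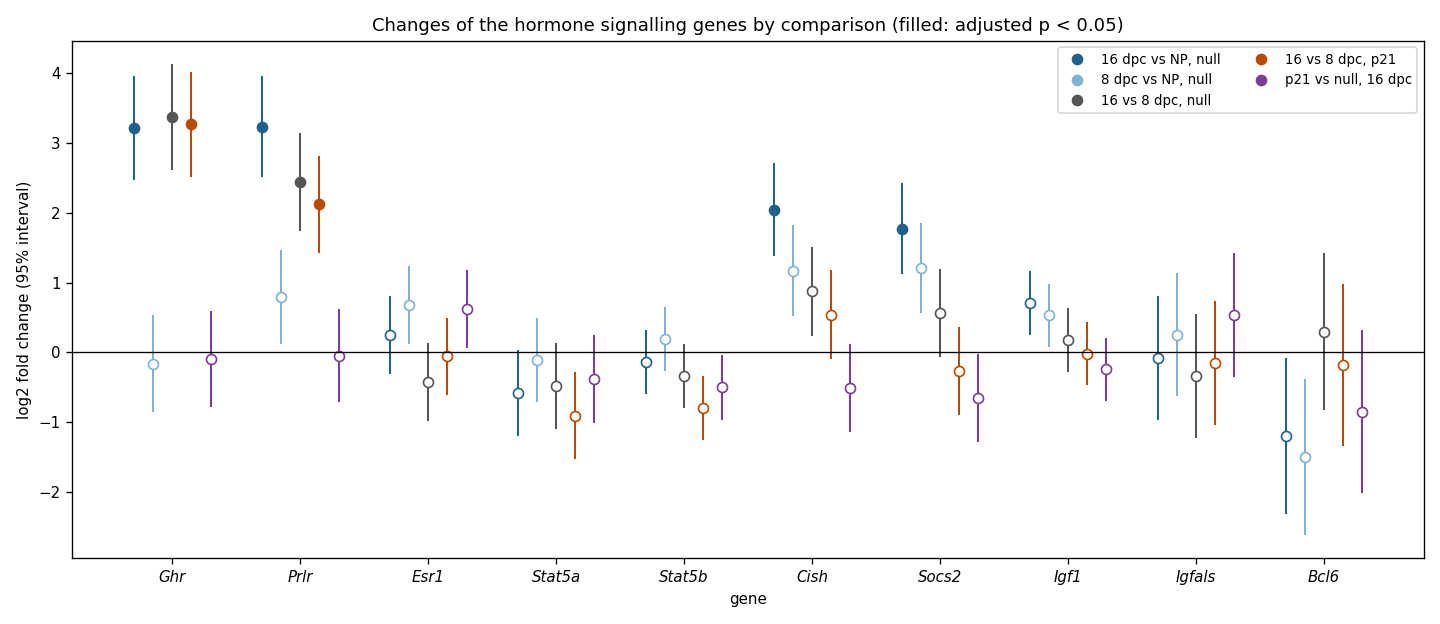
Log2 fold change of each gene with its 95% interval in 5 comparisons from edgeR's quasi-likelihood test (filled points, adjusted p under 0.05). Ghr and Prlr lie between 2.12 and 3.37 wherever 16 dpc is compared with an earlier stage and near 0 between viruses at 16 dpc, and Cish and Socs2 are filled at 16 dpc against NP.

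The step from 8 to 16 dpc was measured under each virus, and these comparisons share no libraries. With AAV8-null, 2 of the 10 genes were called against 6.87% of all genes, and with AAV8-p21 the same pair, Ghr and Prlr, was called against 3.32%. Ghr rose by 3.37 on the log2 scale with AAV8-null (SE 0.35, 10.4-fold, adjusted p = 6.75e-05). With AAV8-p21 it went from 327, 322 and 272 CPM to 3781, 3026 and 2064 CPM, a log2 fold change of 3.27 (SE 0.35, 9.63-fold, adjusted p = 1.60e-04). Prlr rose by 2.44 with AAV8-null (SE 0.33, adjusted p = 6.73e-04). With AAV8-p21 it went from 616, 631 and 667 CPM to 3206, 3006 and 2129 CPM, a log2 fold change of 2.12 (SE 0.32, adjusted p = 0.00218). The difference between viruses in this step was -0.10 for Ghr (95% interval -1.08 to 0.87) and -0.31 for Prlr (95% interval -1.25 to 0.63), and a difference within these intervals was not detectable with 3 libraries a group. DESeq2 called 3 of the 10 with AAV8-p21, with Stat5b at an adjusted p of 0.0207 besides the receptors, among 797 of 16073 genes, and edgeR without 8 dpc AAV8-p21 library 3 also called 3, among 464 of 12407 genes. The share of calls that were higher was 46.1% with AAV8-null and 62.9% with AAV8-p21, and 2.92% and 4.15% under library size alone. Of the 10 genes 7 had the same sign under both viruses, beside 75.6% of all genes. Groups were apart for 3 of the 10 genes with AAV8-null (25.4% of all genes) and for 6 with AAV8-p21 (22.9%).

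With the step averaged over both viruses, 5 of the 10 genes were called against 16.3% of all genes, and 3 of them were higher (8.13% of all genes) and 2 lower (8.14% of all genes). Of all genes called there, 49.97% were higher under TMM and 3.72% under library size alone. Ghr (3.32) and Prlr (2.28) were joined by Cish, which rose by 0.71 on the log2 scale (SE 0.21, adjusted p = 0.0345). Stat5a fell, with a log2 fold change of -0.69 (SE 0.20, adjusted p = 0.0328), and so did Stat5b, with -0.56 (SE 0.15, adjusted p = 0.0222). At 16 dpc with AAV8-p21, Stat5a was at 8.09, 4.87 and 6.26 CPM and Stat5b at 27.9, 26.3 and 23.7 CPM, all below the 8 dpc AAV8-p21 libraries. With AAV8-null the 8 and 16 dpc libraries overlapped for both genes, and the log2 fold changes were -0.48 for Stat5a (adjusted p = 0.344) and -0.33 for Stat5b (adjusted p = 0.390), which did not pass in edgeR. The calls of Cish, Stat5a and Stat5b were not firm: leaving out 1 library at a time gave adjusted p of 0.0207 to 0.0830 for Cish, 0.0241 to 0.0852 for Stat5a and 0.00916 to 0.0650 for Stat5b. With the clock index as a covariate, Stat5a was at -0.42 and Stat5b at -0.39 with adjusted p of 0.215 and 0.171, and under library-size scaling Cish was at 0.09 with an adjusted p of 0.725. Igf1 (0.08, 95% interval -0.24 to 0.40), Socs2 (0.15, -0.30 to 0.59), Igfals (-0.24, -0.87 to 0.38), Esr1 (-0.24, -0.63 to 0.15) and Bcl6 (0.06, -0.75 to 0.87) were not called.

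**Figure D4:**
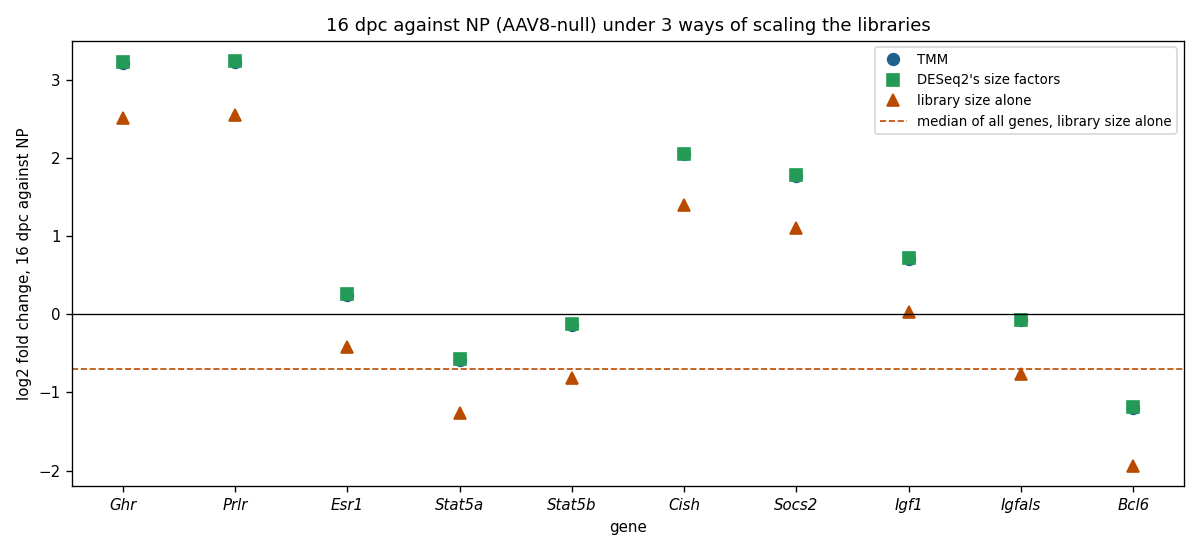
Log2 fold change of each gene at 16 dpc against NP (AAV8-null) with libraries scaled by TMM, by DESeq2's size factors or by library size alone (dashed line, median of all genes under library size alone, -0.70). TMM and DESeq2's factors nearly coincide, and under library size alone Ghr and Prlr are at 2.51 and 2.55, Cish and Socs2 stay above 0, Igf1 is at 0.03 and Esr1 is below 0.

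AAV8-p21 was compared with AAV8-null at each stage to ask what p21 in hepatocytes changes. At 16 dpc 0 of the 10 genes were called, against 0.0739% of all genes (9 genes), and 3 of the 10 were under an unadjusted p of 0.05, as were 1189 of all 12172 genes. DESeq2 called 135 genes and 0 of the 10. Of the called genes 22.2% were higher under TMM, and 56.2% of 16 genes were under library size alone. Groups did not overlap for 4 of the 10 genes, beside 13.7% of all genes. Ghr (95% interval -0.78 to 0.59) and Prlr (-0.71 to 0.62) had log2 fold changes of -0.09 and -0.04, and a difference within those intervals was not detectable. Socs2 was at 36.6, 38.0 and 36.7 CPM with AAV8-p21, below all AAV8-null libraries at 16 dpc, with a log2 fold change of -0.65 (95% interval -1.28 to -0.02, adjusted p = 0.506). Cish was at 24.0, 20.0 and 20.6 CPM, also below all AAV8-null libraries, at -0.51 (95% interval -1.14 to 0.13, adjusted p = 0.597). Stat5b was lower without overlap at -0.50 (95% interval -0.96 to -0.04, adjusted p = 0.478). Esr1 was at 58.8, 40.4 and 37.1 CPM, above all AAV8-null libraries at 16 dpc, at 0.63 (95% interval 0.07 to 1.18, adjusted p = 0.467). None of these passed, and Arntl and Dbp separate the same groups of libraries, so virus and clock state cannot be told apart at 16 dpc. The fasting gene Pdk4 separated them too, at 110 to 1222 CPM with AAV8-null and 14.4 to 40.9 CPM with AAV8-p21 (adjusted p = 0.0623 in edgeR), and the 12 fasting and PPAR-alpha targets had a median log2 fold change of -1.33 with 0 called. Their part in these values was not tested.

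At 8 dpc 0 of the 10 genes were called between viruses, against 0.0246% of all genes (3 genes; 631 at an unadjusted p under 0.05, of which 0 were among the 10), and all 10 overlapped, whereas 10% of all genes did not. DESeq2 called 29 genes and 0 of the 10. Esr1 was at 53.5, 59.1 and 28.7 CPM with AAV8-p21, with the lowest value in library 3, which also had the low Arntl of its group. At 16 dpc with AAV8-p21, by contrast, Arntl was at most 2.91 CPM while Esr1 was at 37.1 to 58.8 CPM. Averaged over both stages 0 of the 10 genes were called, against 0.131% of all genes, of which 43.8% were higher under TMM and 61.1% under library size alone. Esr1 was at 0.44 (95% interval 0.05 to 0.83, adjusted p = 0.342). The interaction of virus and stage was called for 0 genes (0%), with 376 at an unadjusted p under 0.05 and 0 by DESeq2. Socs2 was at -0.83 with a 95% interval of -1.72 to 0.06.

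In the order of group means, the 16 dpc groups led for Ghr and Prlr and did not differ from each other beyond their spread. Below them, neighbouring groups in the order overlapped, while all Prlr levels at 8 dpc with AAV8-p21 were above all those in NP. For Socs2, Cish and Igf1 the highest mean was at 16 dpc with AAV8-null and the lowest in NP. Stat5a and Bcl6 were highest in NP and lowest at 16 dpc with AAV8-p21, and Stat5b was highest at 8 dpc with AAV8-null and lowest at 16 dpc with AAV8-p21. Esr1 and Igfals had their highest means at 8 dpc with AAV8-p21, at 47.1 ± 16.2 and 191 ± 33.3 CPM (SD, n = 3).

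Other genes of the same pathways were read as lists, to be set beside the 6.52% of all genes called at 16 dpc against NP and the 16.3% called from 8 to 16 dpc over both viruses. Of 16 tested genes of the growth hormone and prolactin signal path, 4 rose and 0 fell at 16 dpc against NP, with a median log2 fold change of 0.02 beside -0.03 for all genes. They were Socs3, an inhibitor of cytokine receptors (2.76, adjusted p = 0.0165), the insulin receptor substrate Irs2 (1.55), the transcription factor Stat3 (1.52, adjusted p = 0.00142) and the phosphatase Ptpn1 (0.96). From 8 to 16 dpc over both viruses 1 of the 16 rose, Ptpn1 (0.76), and 2 fell, among them Irs1 (-0.96). Of 12 other genes known to respond to growth hormone or STAT5, 3 rose and 1 fell at 16 dpc against NP. The serpin Serpina3n (1.80), the growth factor receptor Egfr (1.61) and the kinase Pim1 (1.45) were higher, and the cyclin Ccnd1 was lower (-1.72, adjusted p = 0.00809). From 8 to 16 dpc over both viruses 4 rose, Pim3 (1.46), Serpina3n (1.42), Pim1 (0.92) and the survival factor Bcl2l1 (0.65), and 1 fell, Ccnd1 (-1.44). Bcl2l1 lies outside the rule for named genes and was added after its value was seen.

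Ccnd1, which drives entry into the cell cycle, was also the list gene that passed between viruses. It was at 21.1, 21.7 and 26.3 CPM with AAV8-null at 16 dpc and at 163, 278 and 137 CPM with AAV8-p21, with no overlap and a log2 fold change of 3.06 (SE 0.35, adjusted p = 0.00168). No other tested gene of any list was called between viruses at 16 dpc in edgeR.

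In the IGF axis 3 of 6 tested genes rose and 0 fell at 16 dpc against NP, with a median log2 fold change of 0.59. Igfbp1, a binding protein that limits free IGF, was at 147, 117 and 90.1 CPM in NP and 981, 1499 and 1935 CPM at 16 dpc with AAV8-null. It had the largest change of this list at 3.64 (SE 0.45, adjusted p = 3.65e-04). The receptor Igf2r (0.86) and the binding protein Igfbp4 (0.71) rose as well. Averaged over both viruses, 4 of 6 rose from 8 to 16 dpc, Igfbp1 (2.39), Igfbp2 (1.38), Igfbp4 (1.12) and Igf2r (0.78).

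Of 10 tested estrogen receptors, coregulators and estrogen-inactivating enzymes, 0 rose and 1 fell at 16 dpc against NP, the orphan receptor Esrra (-0.81, adjusted p = 0.0181), with a list median of -0.56. The list's estrogen receptors Esr2 and Gper1 and the targets Greb1 and Pgr did not reach the filter. From 8 to 16 dpc over both viruses the pioneer factors Foxa1 (-0.57) and Foxa2 (-0.75) fell.

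Sex-biased liver genes, which depend on the pulse pattern of growth hormone, moved in both directions. Of 22 tested female-biased genes 4 rose and 3 fell at 16 dpc against NP, with Cyp3a44 (3.0) and Sult3a1 (2.19) higher and Cyp2b13 (-3.51) and Slc22a27 (-1.94) lower. Of 16 tested male-biased genes 2 rose and 2 fell, with Serpina1e (3.50) and Susd4 (1.09) higher and Cyp2u1 (-2.33) and Cyp2d9 (-1.12) lower. Many of these belong to families of near-identical copies, so their counts are uncertain. From 8 to 16 dpc over both viruses 3 female-biased genes rose and 8 fell, and 2 male-biased genes rose and 3 fell, where 8.13% of all genes rose and 8.14% fell.

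Lists of other states moved with the stages as follows. Of 12 fasting and PPAR-alpha targets 2 rose at 16 dpc against NP, Pdk4 (3.78) and Plin2 (2.55), and 6 rose from 8 to 16 dpc over both viruses. Of 9 clock genes 0 were called in any comparison, with list medians from -1.37 at 16 dpc against NP to 1.47 in the interaction of virus and stage. Of 6 acute-phase genes 1 rose at 16 dpc against NP, Apcs (1.93). The acute-phase median was 3.12 at 8 dpc against NP, with 0 called. From 8 to 16 dpc it was -1.49 with AAV8-null, with 1 lower, and -0.004 with AAV8-p21, with 0 called. Markers of hepatocytes gave 2 higher and 2 lower of 6 at 16 dpc against NP, and 3 higher from 8 to 16 dpc over both viruses. Of 5 sinusoidal endothelial markers 0 were called at 16 dpc against NP and 4 rose from 8 to 16 dpc over both viruses, where their summed level went from 81.3 to 139.9 CPM per library at 8 dpc to 158 to 215 CPM at 16 dpc. Of 5 stellate cell markers 1 fell at 16 dpc against NP, Lrat (-1.41), and 1 rose from 8 to 16 dpc, Dcn (0.67). None of 5 Kupffer cell, 4 bile duct cell and 2 tested leukocyte markers was called in these comparisons. The part of these states in the values of the 10 genes was not tested beyond the clock covariate.

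The genes most like a given member were found by the root mean square (RMS) difference of standardised log2 CPM over the 15 libraries, where the median gene stood at 1.37 to 1.40. For Ghr these were Cp, the copper carrier ceruloplasmin (0.179), 1300017J02Rik (0.182) and prothrombin F2 (0.188). Cp went from a mean of 999 CPM in NP to 7692 CPM at 16 dpc with AAV8-null. For Prlr they were Aldh1a7 (0.147), the kallikrein Klk1b4 (0.153) and complement factor Cfi (0.157), and Ghr and Prlr differed from each other by 0.334. For Cish they were the fibrinogen chains Fgg (0.313), Fgb (0.408) and Fga (0.417). The nearest genes of Igf1 included Stat3 (0.470) and B4galt1 (0.513), those of Socs2 were Denn2b (0.571), Cldn14 (0.581) and Paqr9 (0.594), and those of Esr1 were Acad9 (0.420), Pstpip2 (0.541) and Map9 (0.546). These values describe likeness across libraries that share stages and depth, and they carry no test.

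Whether members vary together between libraries of 1 group was read from 6 pairs, with log2 CPM centred on the group means over 15 libraries and an exact permutation test within groups (two-sided). Cish and Bcl6 ran opposite, with Pearson r = -0.75 and Spearman rho = -0.70 (exact p = 0.0252 and 0.0381, adjusted over the 6 pairs 0.151 and 0.228), which did not pass the correction. Without the 2 libraries farthest from the median of Cish, r was -0.62. Cish and Socs2 had r = 0.53 and rho = 0.38 (exact adjusted p = 0.409 and 0.616), and Igf1 and Igfals had r = 0.52 and rho = 0.46 (exact adjusted p = 0.299 and 0.466). Without the 2 libraries farthest from the median of the first gene these fell to 0.41 and 0.36. The pairs Igf1 and Socs2 (r = 0.40, rho = 0.25), Ghr and Igf1 (r = 0.21, rho = 0.14) and Socs2 and Bcl6 (r = -0.23, rho = -0.24) had exact adjusted p of 0.409 to 0.711. Within groups the clock genes also differed between libraries, so these relations rest on libraries of mixed clock state.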

How the data were processed

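Whole-liver RNA of WT C57BL/6 female mice (C57BL/6N in the methods) was sequenced (TruSeq Stranded mRNA libraries, single-end reads). Per the methods and the submitters' processing notes, the authors used cutadapt 1.14 for trimming, HISAT2 2.1.0 for alignment to mm10 and HTSeq 0.12.4 to count uniquely mapped reads per protein-coding gene, and deposited raw counts as 1 table. The strand setting of the counting is not given in the sources used here. Raw counts were normalized by TMM and tested with edgeR 4.0.16 (glmQLFit, glmQLFTest, R 4.3.3) over all 15 libraries with 1 mean per group, on the 12172 genes that passed filterByExpr at a minimum count of 10. P-values were adjusted by Benjamini-Hochberg over all genes, and a call was an adjusted p under 0.05 with no fold limit. The 9 comparisons were 3 between stages with AAV8-null, 1 with AAV8-p21, that step averaged over viruses, 3 between viruses and their interaction. CPM and RPKM were computed from the deposited counts, with exon lengths from GENCODE M21, a near release of the annotation the authors counted on. Log2 CPM used a pseudocount of 0.5.

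Total counts were 12280709 to 17615185 per library, and 3 libraries per group limit the precision. The columns of 16 dpc AAV8-p21 carry other numbers than the labels, so they were used as that group without a replicate number, and library numbers there are in table order. Same-numbered libraries of other groups were checked for pairing, and they were treated as sharing only a number, which the check could not settle. No pair of libraries within a group had equal counts, with chi-square per gene from 17 to 158.

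The genes named were the 10 members and, from each list, genes called in a comparison, at most 4 per list and comparison, with 3 nearest genes for each of 6 members. A few genes that meet these conditions are not reported here. The members, lists and tests were chosen with earlier results of these data known. Alternatives were DESeq2 1.42.0 (as size factors and as a Wald test), no filter, the compared groups alone, an added limit of an absolute log2 fold change above 1, the replicate block and leaving out each library. The 16073 genes given for DESeq2's Wald test are those with a p-value, and its own filter on mean counts can leave some of them out of the adjustment. Scaling by library size alone and a clock index as a covariate (on the log2 CPM scale, the average of Clock, Npas2 and Arntl less the average of Ciart, Per3, Nr1d2, Nr1d1, Tef and Dbp) were added after seeing the data. No column of other samples was present. Promoter sequences came from RefSeq.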

Additional observations from a re-analysis of the deposited data

How the results depend on the processing

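Of the 10 genes, the calls of Ghr and Prlr at 16 dpc against NP and from 8 to 16 dpc kept their direction and stayed past the threshold under every alternative run, the block included where it could be fitted. Without the filter on low counts, all genes called were 21 for the viruses at 16 dpc and 32 for the viruses over both stages. With DESeq2's Wald test, all genes called were 1207 for 16 dpc against NP, 66 for 8 dpc against NP, 1358 for 16 against 8 dpc with AAV8-null, 797 for 16 against 8 dpc with AAV8-p21, 135 for the viruses at 16 dpc, 29 for the viruses at 8 dpc and 206 for the viruses over both stages. With DESeq2's Wald test, the called of the 10 were 1 for 8 dpc against NP. With the compared groups alone, all genes called were 399 for 16 dpc against NP, 338 for 16 against 8 dpc with AAV8-null, 5 for the viruses at 16 dpc, 5 for the viruses at 8 dpc and 6 for the viruses over both stages. With the fold limit, all genes called were 926 for 16 against 8 dpc over both viruses. With the fold limit, the called of the 10 were 2 for 16 against 8 dpc over both viruses. With library size alone, all genes called were 6150 for 16 dpc against NP, 6508 for 16 against 8 dpc with AAV8-null, 4317 for 16 against 8 dpc with AAV8-p21, 8408 for 16 against 8 dpc over both viruses and 16 for the viruses at 16 dpc. With library size alone, the called of the 10 were 7 for 16 dpc against NP, 7 for 16 against 8 dpc with AAV8-null, 6 for 16 against 8 dpc with AAV8-p21 and 8 for 16 against 8 dpc over both viruses. With library size alone, log2 fold changes changed sign to Esr1 -0.42 for 16 dpc against NP, and Igf1 -0.54, Socs2 -0.14 and Bcl6 -0.47 for 16 against 8 dpc with AAV8-null, and Cish -0.019 for 16 against 8 dpc with AAV8-p21, and Igf1 -0.56, Socs2 -0.48 and Bcl6 -0.60 for 16 against 8 dpc over both viruses, and Ghr 0.037 and Prlr 0.082 for the viruses at 16 dpc, and Ghr -0.0049 for the viruses at 8 dpc, and Ghr 0.016 for the viruses over both stages, and Ghr 0.042 for the interaction. With the clock index as a covariate, all genes called were 80 for 16 against 8 dpc with AAV8-p21, 900 for 16 against 8 dpc over both viruses and 7 for the viruses over both stages. With the clock index as a covariate, the called of the 10 were 3 for 16 against 8 dpc over both viruses. With the clock index as a covariate, log2 fold changes changed sign to Stat5b -0.033 for 8 dpc against NP, and Igfals 0.14 and Esr1 0.30 for 16 against 8 dpc with AAV8-p21, and Bcl6 -0.51 for 16 against 8 dpc over both viruses, and Ghr 0.10, Prlr 0.25 and Stat5a 0.14 for the viruses at 16 dpc, and Ghr 0.054 and Stat5a 0.070 for the viruses over both stages, and Ghr 0.092 and Stat5a 0.14 for the interaction.

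Leaving out 1 library at a time, all genes called were 0 to 92 for 8 dpc against NP, 373 to 734 for 16 dpc against NP, 258 to 1279 for 16 against 8 dpc with AAV8-null, 5 to 52 for the viruses over both stages, 1246 to 2390 for 16 against 8 dpc over both viruses, 2 to 38 for the viruses at 8 dpc, 3 to 35 for the viruses at 16 dpc and 159 to 464 for 16 against 8 dpc with AAV8-p21, and the called of the 10 were 2 to 5 for 16 against 8 dpc over both viruses and 0 to 1 for 8 dpc against NP. Log2 fold changes whose sign depended on 1 library ran Igfals -0.32 to 0.52 for 16 dpc against NP, and Stat5a -0.29 to 0.30 and Ghr -0.35 to 0.088 for 8 dpc against NP, and Bcl6 -0.46 to 1.17 for 16 against 8 dpc with AAV8-null, and Bcl6 -0.32 to 0.49 and Igf1 -0.0028 to 0.14 for 16 against 8 dpc over both viruses, and Igf1 -0.17 to 0.061, Cish -0.44 to 0.12, Stat5b -0.28 to 0.16, Socs2 -0.037 to 0.59, Ghr -0.24 to 0.20, Stat5a -0.094 to 0.18 and Bcl6 -0.71 to 0.49 for the viruses at 8 dpc, and Ghr -0.17 to 0.12 and Prlr -0.011 to 0.20 for the viruses over both stages, and Igfals -0.16 to 0.48, Ghr -0.36 to 0.22 and Bcl6 -1.34 to 0.28 for the interaction, and Ghr -0.35 to 0.23 and Prlr -0.22 to 0.12 for the viruses at 16 dpc, and Esr1 -0.30 to 0.14, Igf1 -0.13 to 0.10, Bcl6 -0.32 to 0.043 and Igfals -0.50 to 0.15 for 16 against 8 dpc with AAV8-p21. Single libraries moved these counts by more than 1.5 times. Without 8 dpc AAV8-null replicate 3 the counts were 92, 1279 and 38 for 8 dpc against NP, 16 against 8 dpc with AAV8-null and the viruses at 8 dpc, and without its replicates 1 and 2 the middle one was 287 and 258. Without 16 dpc AAV8-null replicate 2 it was 360 and without replicate 3 it was 453. Without NP replicates 2 and 3, 16 dpc against NP gave 373 and 380, and without 16 dpc AAV8-null replicates 2 and 3 it gave 444 and 494. For 16 against 8 dpc with AAV8-p21 it was 159, 188 and 189 without 8 dpc AAV8-p21 replicates 1 and 2 and the second 16 dpc library, 245 and 254 without the first and the third. The third 16 dpc AAV8-p21 library in table order left 35 for the viruses at 16 dpc and 52 over both stages when removed. The cause of these changes was not tested.

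With the replicate block, fitted to the 12 libraries with a number, 657, 0, 655 and 2 genes were called for 16 dpc against NP, 8 dpc against NP, 16 against 8 dpc with AAV8-null and the viruses at 8 dpc, with 4, 0, 2 and 0 of the 10, against 739, 0, 754 and 2 genes and the same numbers of the 10 in those libraries without it. In none of 6 group pairs did all same-numbered libraries have a correlation of deviations over 0.1. NP and 16 dpc AAV8-null had the highest mean for the same number, 0.247 against -0.126 for different numbers. With so few libraries this check cannot exclude pairing or a shared batch. The block changed no call of the 10. DESeq2's size factors in edgeR changed no direction or call of the 10. With 3 libraries a group, 95% intervals of the 10 genes' log2 fold changes limit what could be detected.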

Other observations

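Within the 16 dpc groups the libraries with the lowest receptor levels were also low in Igfals. With AAV8-null, library 3 had the lowest Ghr (1909 CPM), Prlr (2134 CPM) and Igfals (76.0 CPM) of its group, and with AAV8-p21, the third library in table order had the lowest Ghr (2064 CPM), Prlr (2129 CPM) and Igfals (92.3 CPM). Igf1 did not follow, at 666 and 591 CPM there, between the other libraries of each group. The mean log2 CPM of the fasting and PPAR-alpha targets was 9.10 and 8.77 in these libraries, which was the highest of the AAV8-p21 group and the middle of the AAV8-null group. The same 2 libraries had the lowest Alb share (23.5% and 20.5%) and the highest TMM factor (0.825 and 0.839) of their groups. The order of Ghr, Prlr and Igfals was noticed after seeing the values and carries no test.

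Cdkn1a itself was not constant among AAV8-null libraries. It was at 33.7, 5.12 and 3.29 CPM in NP, 27.2, 16.5 and 33.4 CPM at 8 dpc and 64.4, 127 and 59.8 CPM at 16 dpc, with all 16 dpc libraries above all others with AAV8-null.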
